A study of Mus musculus with 19 samples.

Results

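The miR-181c and miR-181d cluster gives 4 mature microRNAs, the 5p and the 3p arm of each of its precursors, and these were 4 of the 1148 miRNA names counted in the hippocampus of aged and young mice. They were taken by name, as every entry beginning with miR-181c or miR-181d. The cluster was selected on measured values, the levels of miR-181c with age and with SAHA in earlier results of these data, so its values in those comparisons are a description: whether a member passed the threshold over all miRNAs is counted beside the share of all miRNAs that did, and nothing is read from it. Small RNA was sequenced from the CA1 subregion of WT mice of the strain labelled C57B/6JRj, in 19 libraries. Of these, 6 came from mice of 20 months given SAHA at 0.67 g per L (aged SAHA), 5 from mice of 20 months given vehicle (aged vehicle) and 8 from mice of 3 months given vehicle (young vehicle). SAHA, or vorinostat, blocks histone deacetylases and was taken by mouth. Drinking water with 18 g of cyclodextrin per L was the vehicle and was shared by all 3 groups, and treatment of the aged mice lasted 4 weeks. The labels do not say how long the young mice received vehicle, which sex the mice were or whether a library held 1 mouse or several, and p-values therefore measure only the spread between these libraries. No young group received SAHA.

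A microRNA is cut from a hairpin precursor as a short duplex, of which usually 1 strand stays in the silencing complex while the other is degraded. The retained strand pairs with messenger RNAs mainly through its seed, bases 2 to 8, so that microRNAs with the same seed are predicted to share targets. The miR-181 family is abundant in the brain and in developing lymphocytes; in mouse thymocytes miR-181a is known for setting the sensitivity of the T cell receptor, and in rat heart miR-181c is known for acting on a transcript of the mitochondrial genome.

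Sequences were available from RefSeq (GRCm38.p6) for all 4 members, and they are shown because the cluster differs so little from its relatives on other chromosomes. Each is written 5′ to 3′ with the seed in capitals.
miR-181c-5p: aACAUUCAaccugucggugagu
miR-181a-5p: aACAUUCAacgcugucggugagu
miR-181d-5p: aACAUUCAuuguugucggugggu
miR-181b-5p: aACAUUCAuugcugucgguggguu
miR-181c-3p: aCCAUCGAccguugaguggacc
miR-181a-1-3p: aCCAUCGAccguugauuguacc
miR-181d-3p: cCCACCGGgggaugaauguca

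The 4 listed miRNAs with the seed ACAUUCA were the 5p arms of miR-181a, miR-181b, miR-181c and miR-181d. The cluster's 5p arms each resemble a more abundant relative more than each other. miR-181c-5p, of 22 bases, was 1 edit away from miR-181a-5p, which is 1 base longer, and 5 edits away from miR-181d-5p. Counted from the 5′ end, miR-181d-5p differed from miR-181b-5p by U12C (miR-181d has U and miR-181b has C) and by 1 further base at the 3′ end. The seed CCAUCGA of miR-181c-3p was shared with miR-181a-1-3p, from which it differed by G16U and G19U. miR-181d-3p was the 1 listed miRNA with the seed CCACCGG. The labels do not say how the authors' counting divided reads that match several of these names, so the split between miR-181c-5p and miR-181a-5p, and between miR-181d-5p and miR-181b-5p, is uncertain.

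Both precursors lie on the minus strand of chromosome 8 (GRCm38). Mir181d spans chr8:84178716-84178787 and Mir181c spans chr8:84178873-84178961, with 85 bases between them. In GENCODE M21 they fall in an intron of Nanos3 on the same strand, a germ cell RNA-binding protein gene annotated at chr8:84173731-84185217. In RefSeq the highest coordinate of Nanos3, the upstream side of this minus-strand gene, lies 2163 bases below Mir181d. The cluster is thus intronic in the GENCODE annotation and upstream of the gene in RefSeq. The precursors of miR-23a, miR-27a and miR-24-2 begin 29.6 kb away on the plus strand, in no annotated gene. The Mir181d precursor of 72 bases is printed with its arms in capitals, since only its 5p arm was appreciably counted.
Mir181d: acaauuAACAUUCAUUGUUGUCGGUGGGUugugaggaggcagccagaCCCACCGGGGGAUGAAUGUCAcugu

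**Figure D1:**
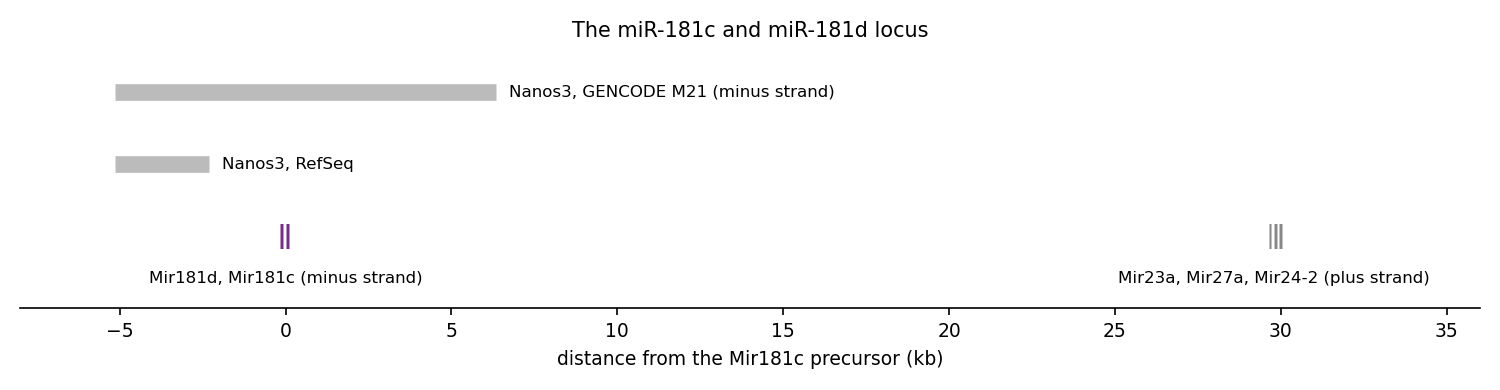
Map of the locus, to scale, with distance from the Mir181c precursor in kb on the horizontal axis and the extent of Nanos3 in both annotations as grey bars. The Mir181c and Mir181d precursors lie inside the GENCODE gene and outside the RefSeq gene, and the Mir23a group starts 29.6 kb away.

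Totals of miRNA reads were 4211365 to 5410804 with aged SAHA, 4642434 to 5249168 with aged vehicle and 3585489 to 6808281 with young vehicle. Levels are in CPM, read counts relative to the library total after TMM scaling. Each read covers a whole mature miRNA, so no length correction was made. How evenly the libraries captured different sequences was not tested. Ranks, arm shares and ratios between miRNAs therefore describe counts, not numbers of molecules. A library correlated with others of its group at a median r of 0.989 for aged SAHA 1 and of 0.992 to 0.996 for all others, over log2 CPM. Young vehicle 6 stood apart from its group in miR-181c-5p and miR-181a-5p, and the main values that rest on it are given with and without it. miRNAs listed as neuronal, 8 in number and including miR-124-3p and miR-9-5p, were all detected.

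The members of the cluster were counted at uneven levels in CA1. miR-181c-5p averaged 4727 CPM over the 19 libraries, rank 35 of the 1148 names, and held 0.472% of all miRNA counts. miR-181d-5p averaged 1075 CPM and rank 76, and miR-181c-3p 333.4 CPM and rank 140. Both 5p arms were far below the relatives with the same seed, miR-181a-5p with 136665 CPM (rank 2) and miR-181b-5p with 10095 CPM (rank 20). Together miR-181c-5p and miR-181d-5p made up 3.63% ± 0.379 of the counts of the 4 arms with this seed in aged SAHA libraries (SD, n = 6), 3.597% ± 0.213 in aged vehicle libraries (SD, n = 5) and 4.11% ± 0.361 in young vehicle libraries (SD, n = 8).

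The precursors differed in how much of their 3p arm was counted. The 3p arm took 6.60% of the 496325 counts of miR-181c (exact Clopper-Pearson 95% interval 6.53 to 6.67%). For miR-181d it took 47 of 105890 counts, or 0.0444% (0.0326 to 0.0590%). These intervals cover counting error only, since reads without molecular identifiers are not independent molecules. miR-181d-3p had 3, 0, 4, 2, 2 and 0 counts in aged SAHA libraries, 4, 3, 3, 4 and 1 in aged vehicle libraries, and 1, 4, 1, 2, 3, 0, 8 and 2 in young vehicle libraries. A count of 0 allows up to 3 counts in such a library. miR-181d-3p failed the filter on low counts, while the other 3 members passed. A difference between groups in miR-181d-3p was therefore not tested, and at this depth its counts allow no statement on one.

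**Figure D2:**
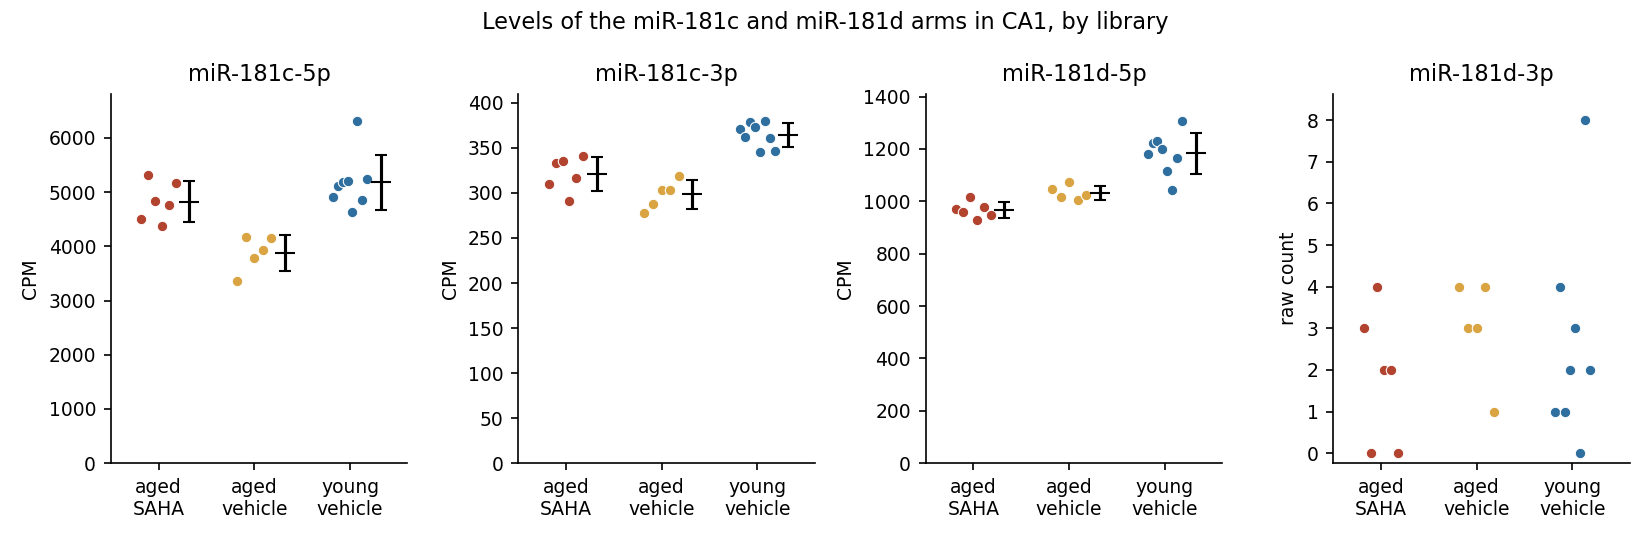
Level of each member by library: CPM for miR-181c-5p, miR-181c-3p and miR-181d-5p, with group mean and SD as the black bar, and raw counts for miR-181d-3p. Points are libraries, 6 aged SAHA, 5 aged vehicle and 8 young vehicle; miR-181c-5p is lowest in aged vehicle libraries and miR-181d-5p in aged SAHA libraries.

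The age comparison asked which miRNAs differ in CA1 between 20 and 3 months under vehicle. Both arms of miR-181c were lower in aged mice, and every aged vehicle library lay below every young vehicle library for each arm. miR-181d-5p, from the adjacent precursor, was lower by a smaller fold, and its groups overlapped only through young vehicle 6. The tissue is bulk, so fewer cells of a type and less of the miRNA per cell cannot be told apart.

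miR-181c-5p, the arm of its precursor with more counts, had 3355, 4180, 3789, 3926 and 4153 CPM in aged vehicle libraries. In young vehicle libraries its lowest value was 4631, its median 5145 and its highest 6315 CPM. The highest aged vehicle library was therefore below the lowest young vehicle library. The log2 fold change of aged vehicle over young vehicle was -0.42 ± 0.07 (SE, edgeR fit over all 19 libraries), so that the level fell by 25.1%, and it was -0.37 without young vehicle 6.

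miR-181c-3p, the arm with fewer counts, had 278.1, 287.2, 303.3, 303.6 and 319.2 CPM in aged vehicle libraries. Young vehicle libraries ranged from 345.3 to 380.0 CPM with a median of 366.7. The groups did not overlap, and the log2 fold change was -0.29 ± 0.06. This arm is 2 substitutions away from its nearest relative, miR-181a-1-3p, which had a log2 fold change of -0.14 ± 0.10 (adjusted p = 0.505).

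miR-181d-5p had 1048, 1016, 1073, 1006 and 1023 CPM in aged vehicle libraries. Its lowest, median and highest values in young vehicle libraries were 1044, 1189 and 1307 CPM. Of the aged vehicle libraries, 3 of 5 lay below every young vehicle library, and the lowest young vehicle library was number 6, the one in which miR-181c-5p was highest. The log2 fold change was -0.20 ± 0.06, and -0.22 without that library. Young vehicle 5, the next lowest of its group, had 1115 CPM, above every aged vehicle library.

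At an adjusted p under 0.05 over all 509 miRNAs tested, 2 of the 3 members that passed the filter were called, miR-181c-5p and miR-181c-3p, both lower. In the same comparison 11 of 509 miRNAs were called (2.16%), 10 of them lower (1.96% of those tested), and in 11 of 509 (2.16%) every aged vehicle library lay below every young vehicle library. The members were chosen with these calls known, so nothing is read from their number. miR-181d-5p was not called, but it passed the threshold when young vehicle 6 was left out. The difference between miR-181c and miR-181d in their response to age was not tested.

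On the edge of the threshold in this comparison, the miRNAs just inside it were miR-135b-5p with a log2 fold change of -0.68, miR-322-3p with -0.69 and miR-490-3p with -0.43. Just outside it were miR-669a-3p with -0.79, miR-148b-5p with -0.39 and miR-181d-5p itself with -0.20. The median log2 fold change of all 509 miRNAs was -0.003, and that of the 3 members -0.29.

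Markers of other cell types were compared as well. Of 6 listed lymphocyte and myeloid miRNAs, miR-146a-5p was called higher and miR-150-5p, which is abundant in mature lymphocytes, was called lower. Their summed level was 1488 to 1819 CPM in aged vehicle libraries and 1351 to 1475 CPM in young vehicle libraries, and none of the 6 was at 0 throughout. The summed level of the 8 neuronal miRNAs was 85875 to 91484 CPM in aged vehicle libraries and 85068 to 95815 CPM in young vehicle libraries, with 0 of 8 called by edgeR. Of the other lists 0 members were called for age: all 4 tested erythrocyte miRNAs had negative log2 fold changes (median -0.29), as had 5 of 6 of epithelium and choroid plexus (median -0.32) and all 4 of endothelium and mural cells (median -0.10), while all 4 oligodendrocyte miRNAs had positive ones (median 0.18). The part of these cells in the miR-181c difference was not tested.

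The SAHA comparison asked what the inhibitor did in aged CA1. miR-181c-5p was higher, with every aged SAHA library above every aged vehicle library. miR-181c-3p had a log2 fold change of 0.11 ± 0.06 and miR-181d-5p one of -0.10 ± 0.06, neither past the threshold. Differences between members in their response to SAHA were not tested.

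miR-181c-5p had 4370.3 CPM in its lowest aged SAHA library, a median of 4800.4 and 5316 in its highest, against the 3355 to 4180 CPM of the aged vehicle libraries. The log2 fold change of aged SAHA over aged vehicle was 0.31 ± 0.08, an increase of 24.4%. Leaving out aged vehicle 1, the library with the lowest value, gave 0.27, and leaving out aged SAHA 6 gave 0.29; in each case miR-181c-5p no longer passed the threshold.

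miR-181c-3p ranged from 291.3 to 340.8 CPM in aged SAHA libraries, with a median of 324.8, against 278.1 to 319.2 CPM in aged vehicle libraries. Of the aged SAHA libraries 3 of 6 were above every aged vehicle library. miR-181d-5p ranged from 927.8 to 1018 CPM, with a median of 964.7, in aged SAHA libraries and from 1006 to 1073 CPM in aged vehicle libraries. For this arm 5 of 6 aged SAHA libraries were below every aged vehicle library, and aged SAHA 3 was the exception.

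Of the 3 members that passed the filter, 1 was called with SAHA, miR-181c-5p, which was higher. The comparison called 22 of 509 miRNAs (4.32%), 6 of them higher (1.18% of those tested). The total was 11 without aged SAHA 6, 13 without aged vehicle 1 and 14 without aged vehicle 3, and the number higher was 10 of 26 with DESeq2 size factors, 11 of 27 by library size only, 23 of 46 with DESeq2 and 20 of 46 with limma-voom. In 8 of 509 (1.57%) every aged SAHA library lay above every aged vehicle library. The members were chosen with this call known too. The median log2 fold change was -0.01 over all 509 miRNAs and 0.11 over the 3 members.

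The summed level of the neuronal miRNAs was lower with SAHA. It was 73010 to 79709 CPM in aged SAHA libraries and 85875 to 91484 CPM in aged vehicle libraries, so the groups did not overlap. A sum gives most weight to the most abundant members. Of the 8, 2 were called lower and 0 higher, beside 16 of 509 called lower over all miRNAs. All 8 had negative log2 fold changes, against 261 of 509 over all miRNAs. Their median was -0.14, and the median absolute log2 fold change of all 509 was 0.14. Lymphocyte and myeloid miRNAs summed to 1377 to 2533 CPM in aged SAHA libraries and 1488 to 1819 CPM in aged vehicle libraries, with 0 of 6 called by edgeR. The other 4 lists, of oligodendrocyte, erythrocyte, epithelium and choroid plexus, and endothelium and mural miRNAs, also had 0 calls. The part of these changes in the level of miR-181c-5p was not tested.

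Aged SAHA and young vehicle libraries were compared as well; this comparison shares its libraries with the other comparisons and is no independent observation. miR-181d-5p and miR-181c-3p were lower in treated aged mice than in young mice. miR-181c-5p reached 4370.3 to 5316 CPM in aged SAHA libraries, inside or just under the 4631 to 6315 CPM of young vehicle libraries, and only 2 of 6 aged SAHA libraries were below every young vehicle library. Its log2 fold change was -0.10 ± 0.07, and -0.06 without young vehicle 6.

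For miR-181d-5p all 6 aged SAHA libraries, 927.8 to 1018 CPM, lay below all 8 young vehicle libraries, 1044 to 1307 CPM, and the log2 fold change was -0.29 ± 0.05. For miR-181c-3p the ranges were 291.3 to 340.8 CPM in aged SAHA libraries and 345.3 to 380.0 CPM in young vehicle libraries, with a log2 fold change of -0.18 ± 0.06. These 2 of the 3 members that passed the filter were called, both lower; 71 of 509 miRNAs were called (13.9%), 44 of them lower (8.64% of those tested), and 13 of 509 (2.55%) were lower with no overlap. By library size only, 33 of 84 calls were lower. The call for miR-181c-3p was lost on leaving out aged SAHA 4 or 5, aged vehicle 1, 2 or 4, or young vehicle 3. Some markers of other cell types were called as well. Of lymphocyte and myeloid miRNAs 3 of 6 were called higher and 1 lower, and of oligodendrocyte miRNAs 1 of 4 was called higher. Of epithelium and choroid plexus miRNAs 2 of 6 were called lower, and of neuronal miRNAs 2 of 8, whose summed level was 73010 to 79709 CPM in aged SAHA libraries and 85068 to 95815 CPM in young vehicle libraries. Of erythrocyte and of endothelium and mural miRNAs 0 of 4 each were called by edgeR. Their part in the values of the members was not tested.

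Ordered by their means, the groups differed between members. miR-181c-5p averaged 4827 ± 370.0 CPM in aged SAHA (SD, n = 6), 3881 ± 336 CPM in aged vehicle (SD, n = 5) and 5181 ± 503 CPM in young vehicle libraries (SD, n = 8), or 5019 ± 224 CPM without young vehicle 6 (SD, n = 7). It was thus highest in young vehicle and lowest in aged vehicle libraries, and aged SAHA overlapped with young vehicle but not with aged vehicle. miR-181c-3p averaged 321.1 ± 18.8 CPM in aged SAHA, 298.3 ± 16.0 CPM in aged vehicle and 364.6 ± 13.5 CPM in young vehicle libraries. The order was the same, but here aged SAHA overlapped with aged vehicle and not with young vehicle. miR-181d-5p averaged 966.8 ± 30.3 CPM in aged SAHA, 1033 ± 27.2 CPM in aged vehicle and 1183 ± 79.2 CPM in young vehicle libraries. It was lowest in aged SAHA libraries, and aged vehicle overlapped with both other groups, with young vehicle only through young vehicle 6. Of the 3 members that passed the filter, miR-181d-5p varied least within the aged groups, with a coefficient of variation of 3.13% in aged SAHA and 2.63% in aged vehicle libraries, against 7.66% and 8.65% for miR-181c-5p.

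**Figure D3:**
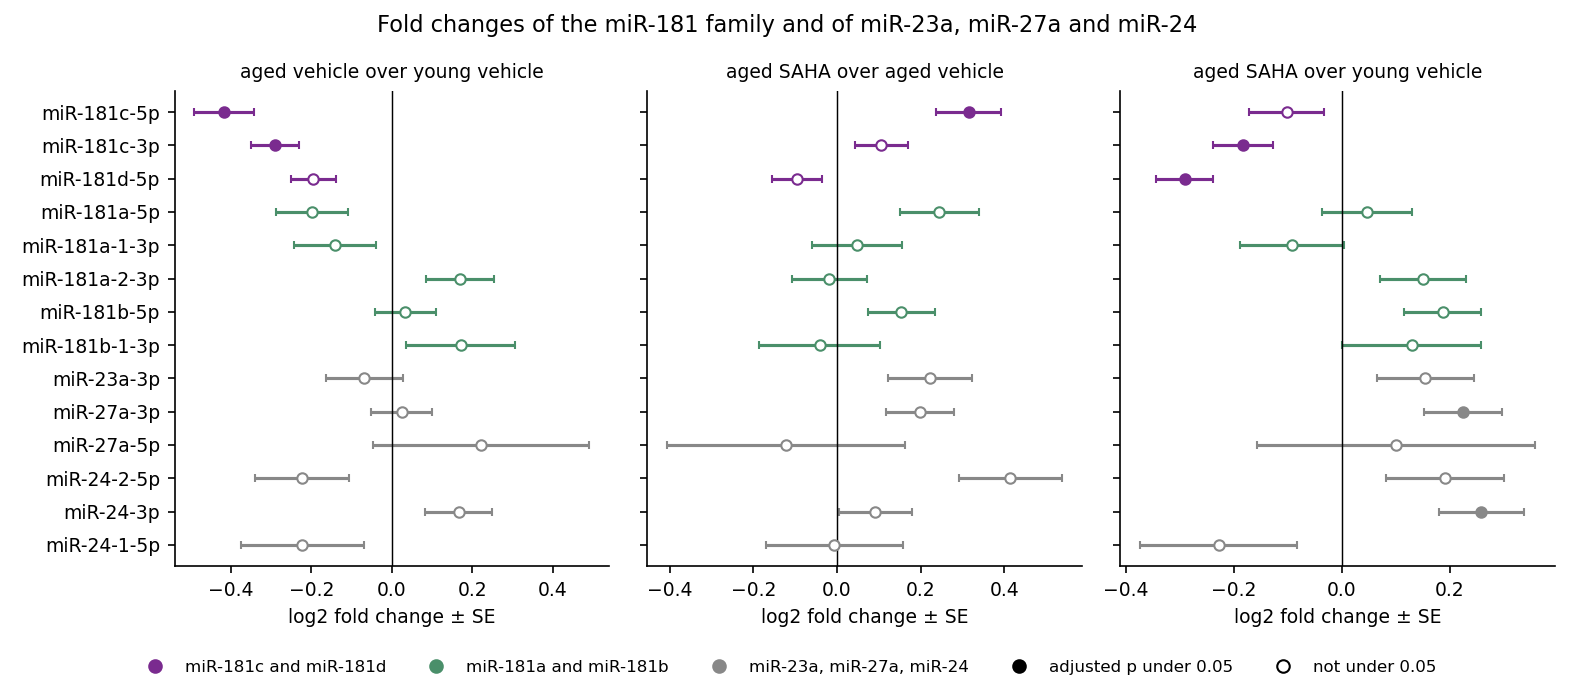
Log2 fold change with its SE in the 3 comparisons, aged vehicle over young vehicle, aged SAHA over aged vehicle and aged SAHA over young vehicle, for members, miR-181a and miR-181b arms and the miR-23a, miR-27a and miR-24 arms (miR-24-1-5p comes from another locus). Filled points had an adjusted p under 0.05; the values of members are a description, and the 3 members lie below 0 in both comparisons with young vehicle.

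Ratios of raw counts within a library need no scaling between libraries. miR-181c-5p exceeded miR-181d-5p by a mean of 4.98-fold in aged SAHA libraries, 3.75-fold in aged vehicle libraries and 4.37-fold in young vehicle libraries (geometric means). All 6 aged SAHA libraries, at 4.64-fold to 5.54-fold, were above all 5 aged vehicle libraries, at 3.20-fold to 4.12-fold. Young vehicle 6 had 6.05-fold, and the other 7 of its group 4.01-fold to 4.34-fold.

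The mean ratio of the miR-181c arms differed between groups, with overlapping ranges in all 3 comparisons. miR-181c-5p was 15.02-fold above miR-181c-3p in aged SAHA libraries, 13.0-fold in aged vehicle libraries and 14.2-fold in young vehicle libraries (13.8-fold without young vehicle 6). The log2 ratio averaged 3.91 ± 0.05 (SD, n = 6) in aged SAHA libraries and 3.70 ± 0.10 (SD, n = 5) in aged vehicle libraries, and 4 of 6 aged SAHA libraries were above every aged vehicle library. No test of these ratios is given, since they come from the contrasts on which the cluster was chosen.

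The 5p arms were also set against the relative of nearly the same sequence. miR-181c-5p amounted to 0.0336 of the miR-181a-5p count in aged SAHA libraries, 0.0318 in aged vehicle libraries and 0.0371 in young vehicle libraries. The log2 ratio differed by -0.22 ± 0.06 (SE) between aged vehicle and young vehicle libraries, with 3 of 5 aged vehicle libraries below every young vehicle library. It differed by 0.08 ± 0.08 between aged SAHA and aged vehicle libraries, and by 0.04 without aged vehicle 1 or without aged SAHA 4. The ranges overlapped in both comparisons. miR-181d-5p amounted to 0.0887 of the miR-181b-5p count in aged SAHA libraries, 0.105 in aged vehicle libraries and 0.123 in young vehicle libraries. That log2 ratio differed by -0.24 ± 0.07 between aged SAHA and aged vehicle libraries, with 5 of 6 aged SAHA libraries below every aged vehicle library. Between aged vehicle and young vehicle libraries it differed by -0.23 ± 0.09, and no aged vehicle library was below every young one. This rests on young vehicle 6 with -3.38, since the next lowest young library had -3.18 and aged vehicle libraries had -3.34 to -3.10. Without young vehicle 6 the difference was -0.28.

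**Figure D4:**
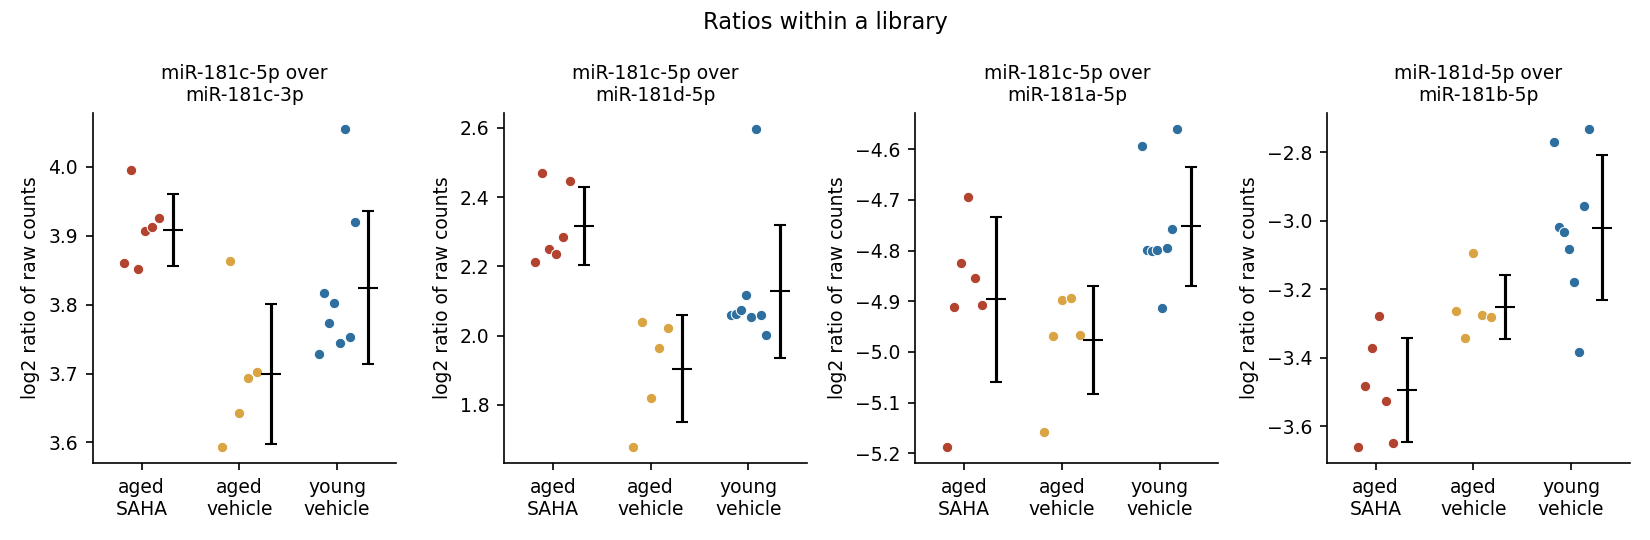
Log2 ratios of raw counts within each library, with group mean and SD as the black bar, for miR-181c-5p over miR-181c-3p, over miR-181d-5p and over miR-181a-5p, and for miR-181d-5p over miR-181b-5p. The ratio of miR-181c-5p to miR-181d-5p is higher in all 6 aged SAHA libraries than in all 5 aged vehicle libraries, while its ratio to miR-181a-5p overlaps between these groups.

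The rest of the family did not pass the threshold. Of 6 listed arms of miR-181a and miR-181b, 5 passed the filter, and 0 of these 5 were called by edgeR in any of the 3 comparisons. miR-181a-5p averaged 144520 ± 19025 CPM in aged SAHA libraries (SD, n = 6), 122006 ± 8043 CPM in aged vehicle libraries (SD, n = 5) and 139935 ± 17227 CPM in young vehicle libraries (SD, n = 8), or 134904 ± 10488 CPM without young vehicle 6 (SD, n = 7). Its log2 fold changes had the signs of miR-181c-5p for age and SAHA, with -0.20 ± 0.09 for age (adjusted p = 0.262; -0.15 without young vehicle 6) and 0.24 ± 0.09 for SAHA (adjusted p = 0.128, edgeR quasi-likelihood test with Benjamini-Hochberg adjustment). In aged SAHA over young vehicle it had 0.05 ± 0.08 (adjusted p = 0.733), opposite in sign to miR-181c-5p. The SAHA value passed the threshold in 2 of 29 fits, with 0.31 and an adjusted p of 0.0288 without aged SAHA 4. The part that reads of miR-181a-5p counted as miR-181c-5p could have in the values of miR-181c-5p was not tested.

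miR-181b-5p, the relative closest to miR-181d-5p, had log2 fold changes of 0.03 ± 0.08 for age (adjusted p = 0.858), 0.15 ± 0.08 for SAHA (adjusted p = 0.307) and 0.19 ± 0.07 for aged SAHA over young vehicle (adjusted p = 0.0837), the last of which passed the threshold in 6 of 30 fits. These signs are opposite to those of miR-181d-5p in all 3 comparisons. For age, however, the value of miR-181b-5p was within its SE of 0 and ranged from -0.0007 to 0.07 over the fits. The difference between the arms was not tested. The 3p arms of miR-181a-2 and miR-181b-1 had positive values with age, 0.17 ± 0.08 (adjusted p = 0.321) and 0.17 ± 0.14 (adjusted p = 0.563).

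The miR-23a, miR-27a and miR-24-2 precursors are the nearest other miRNA group on the chromosome. Of the 6 arms listed, 5 passed the filter, and by edgeR 0 of 5 were called for age and 0 of 5 for SAHA. miR-24-2-5p, which comes from this locus alone, had 95.5 CPM in its lowest aged SAHA library, a median of 103.6 and 148.5 in its highest, against 79.2, 87.3, 71.8, 92.6 and 81.0 CPM in aged vehicle libraries. Every aged SAHA library was above every aged vehicle library, as in 8 of 509 miRNAs (1.57%). The log2 fold change of miR-24-2-5p was 0.41 ± 0.12 (adjusted p = 0.0566 by edgeR). It passed the threshold in 9 of 30 fits, with an adjusted p range of 0.0167 to 0.156. In aged SAHA over young vehicle, miR-24-3p with 0.26 ± 0.08 (adjusted p = 0.0301) and miR-27a-3p with 0.22 ± 0.07 (adjusted p = 0.0413) were called higher, as were 27 of 509 miRNAs (5.3%). miR-24-3p is also made from a second locus, that of miR-24-1-5p, which was not called in any comparison. Its call held in 24 of 30 fits, and that of miR-27a-3p in 18 of 30. Without aged SAHA 1, miR-24-3p had 0.21 (adjusted p = 0.0594) and miR-27a-3p 0.17 (adjusted p = 0.0940), neither called.

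Across the 19 libraries the arms of miR-181c followed each other, and miR-181c-5p did not follow its neighbour in the cluster. Correlations of log2 CPM are a description, since all values of a library share its scaling. miR-181c-5p had r = 0.835 with miR-181c-3p (Spearman's rho 0.818, n = 19), and 0.667 after the group means were subtracted. With miR-181d-5p it had r = 0.276 (rho 0.286), 0.352 without young vehicle 6, and -0.29 after the group means were subtracted. miR-181c-3p and miR-181d-5p had r = 0.622 (rho 0.607) and -0.05 on subtraction. With miR-181a-5p, miR-181c-5p had r = 0.690 (rho 0.660) and 0.626 on subtraction. Leaving out the 2 libraries farthest from the median of the second miRNA gave 0.779 for miR-181c-3p, 0.156 for miR-181d-5p and 0.527 for miR-181a-5p.

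**Figure D5:**
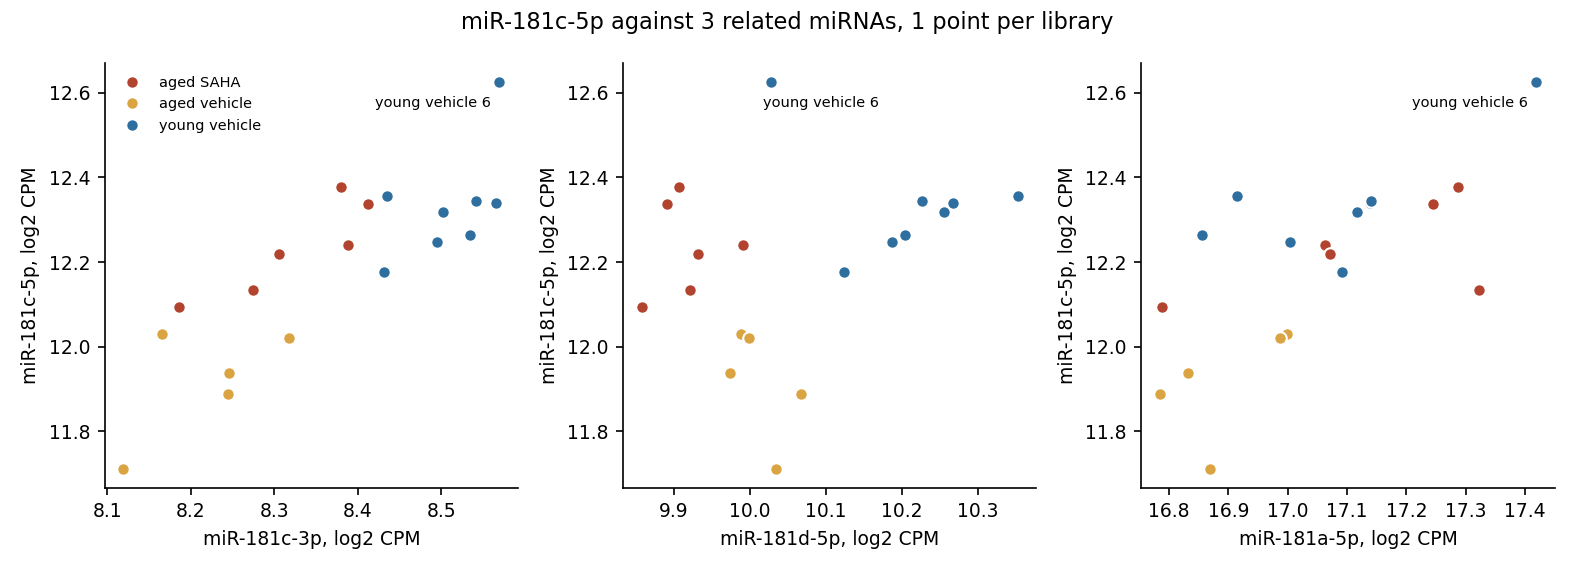
miR-181c-5p on the vertical axis against miR-181c-3p, miR-181d-5p and miR-181a-5p on the horizontal axes, in log2 CPM, with 1 point per library coloured by group. The points rise together in the first panel (r = 0.835, n = 19) and not in the second (r = 0.276), where young vehicle 6 is at the top.

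The miRNAs outside the family with the pattern most like miR-181c-5p, by Pearson r over 19 libraries, were let-7g-5p with r = 0.737, miR-298-5p with 0.710, miR-542-3p with 0.693 and miR-1224-5p with 0.669. Least like it were miR-29c-3p with r = -0.81 and miR-384-5p with -0.72. Of these, miR-542-3p had a low level, averaging 5.23 CPM. miR-298-5p was called lower with age, with a log2 fold change of -0.89 ± 0.14 (adjusted p = 0.000777), and had 0.32 ± 0.15 with SAHA (adjusted p = 0.236). Once group means were subtracted, the closest were miR-3107-5p and miR-486-5p, known as near-identical copies and as erythrocyte miRNAs, with r = 0.812 and 0.811, then miR-3068-3p with 0.743 and miR-3082-3p with 0.693. miR-3107-5p and miR-486-5p averaged 2833 and 2845 CPM, so they need not be separate observations. The lowest were then miR-379-3p with -0.83 and miR-377-3p with -0.79, both of the imprinted Dlk1-Dio3 region, of which miR-379-3p was called lower with SAHA at -0.53 ± 0.11 (adjusted p = 0.0042).

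miR-181d-5p was accompanied by other miRNAs. The most alike were miR-669a-3p with r = 0.858, miR-150-5p with 0.852, miR-322-5p with 0.845 and miR-296-5p with 0.830, and the least alike miR-339-5p with -0.83 and miR-488-3p with -0.75. Of these, miR-669a-3p and miR-296-5p had low levels, averaging 2.15 and 6.43 CPM. miR-150-5p, of the lymphocyte and myeloid list, averaged 467.7 ± 52.0 CPM in aged SAHA libraries (SD, n = 6), 535.4 ± 26.5 CPM in aged vehicle libraries (SD, n = 5) and 687.4 ± 20.0 CPM in young vehicle libraries (SD, n = 8), the same order of groups as miR-181d-5p. Its log2 fold change by edgeR was -0.36 ± 0.07 with age (adjusted p = 0.00223) and -0.20 ± 0.07 with SAHA (adjusted p = 0.104). In aged SAHA over young vehicle it was -0.56 ± 0.06 (adjusted p = 4.42e-06). The rest of its list went the other way there: miR-150-5p was the 1 of 6 with a negative value, and 3 of 6 were called higher. With group means subtracted, the closest to miR-181d-5p were miR-384-5p with 0.718, miR-335-5p with 0.697, miR-425-3p with 0.669 and miR-335-3p with 0.652, and the lowest let-7g-5p with -0.70 and let-7f-2-3p with -0.67.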

How the data were processed

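Per the labels, CA1 was microdissected, frozen and made into TruSeq libraries. The authors deposited raw counts, 1 whole number per mature miRNA and library. CASAVA 1.8.2, cutadapt, STAR, HTSeq and mm10 are named in the submitters' processing notes, without settings; the miRNA annotation release and the treatment of multiply matching reads are not given in the sources used here. The 4 HTSeq summary lines were all 0 and were left out.

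Of 1148 miRNAs, 509 passed filterByExpr (minimum count 10, minimum total 15). After TMM scaling, edgeR 4.0.16 (R 4.3.3) gave the fit (robust quasi-likelihood F test, 1 term per group, all 19 libraries, Benjamini-Hochberg adjustment over 509, called under 0.05). The fit was also run on simulated counts with 200 miRNAs changed, more than were called in any comparison here. Nothing is read from that run. The members and lists were chosen with earlier results of these data known. Named miRNAs were the members, the miR-181a, miR-181b, miR-23a, miR-27a and miR-24 arms, the 4 most and 2 least correlated with miR-181c-5p and miR-181d-5p, 3 on either side of the age threshold, and, chosen after their values were seen, examples from the marker lists. Within groups, 53 library pairs differed by far more than counting error (chi-square per degree of freedom 26.7 to 319.7). The labels give no batch. Alternatives were DESeq2 1.42.0, limma-voom (limma 3.58.1), other scalings and filters, libraries left out and a replicate block.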

Additional observations from a re-analysis of the deposited data

Results flagged for a closer look

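Of 42 sets of values of 1 group that were examined for a library far from the rest, 5 had one. Chance alone gives about 1 in 20, but the sets are built partly from the same counts and are not independent. No excess over chance is read from this number. Young vehicle 6 accounted for 3 of the 5 flagged sets. Its miR-181c-5p level of 6314.9 CPM stood above the 4631 to 5239.8 CPM of the other 7 libraries, and its miR-181a-5p level of 175152 CPM above their 118648 to 144555 CPM. Its log2 ratio of miR-181c-5p to miR-181d-5p was 2.597, against 2.003 to 2.117 in the others.

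Aged vehicle 1 accounted for the other two. Its log2 ratio of miR-181c-5p to miR-181a-5p was -5.157, against -4.97 to -4.89 in the other 4 libraries, and its miR-181c-5p share of the counts of the miR-181 5p arms was 2.501%, against 2.86 to 2.99%.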

How the results depend on the processing

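No alternative reversed the sign of a called value. Calls for age numbered 11 and moved to 20 with DESeq2, 23 with limma-voom, 19 with only the groups compared and 18 without aged SAHA 1 and young vehicle 6, a pair left out after seeing the data. Calls for SAHA numbered 22 and moved to 46 with DESeq2, 46 with limma-voom and 37 without that pair; leaving out 1 library gave 11 to 33 for SAHA (11 on omission of aged SAHA 6, and 13 or 14 on omission of aged vehicle 1 or aged vehicle 3), 8 to 14 for age and 57 to 81 for aged SAHA over young vehicle. miR-181d-5p passed the threshold for age with DESeq2 (-0.18), limma-voom (-0.20) and without that pair (-0.22), and ranged from -0.22 to -0.16 with 1 library left out. miR-181c-3p in aged SAHA over young vehicle lost its call by library size only (-0.14), with no filter (-0.17), with only the groups compared (-0.15), without the 3 most abundant miRNAs (-0.15) and without that pair (-0.17), and ranged from -0.20 to -0.14 with 1 library left out. miR-181c-5p with SAHA ranged from 0.27 to 0.35 with 1 library left out.

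Replicate numbers did not pair the libraries: same-numbered deviations correlated at -0.32 to 0.32, and 0 of 5, 0 of 5 and 2 of 6 libraries correlated best with their own number. With the replicate block, 8, 15 and 58 miRNAs were called for age, SAHA and aged SAHA over young vehicle; miR-181c-5p had -0.39 for age and 0.28 for SAHA, and miR-181c-3p had -0.20 in aged SAHA over young vehicle, no longer called. The joint share of miR-181c-5p and miR-181d-5p in the family differed between aged SAHA and aged vehicle by -0.07 to 0.16 percentage points with 1 library left out. The cause of these shifts was not tested. Depth limits miR-181d-3p alone among the members.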
